A study of Drosophila melanogaster with 12 samples.

Results

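The guts and the fat bodies of uninduced female flies were compared through the 10005 genes whose identifiers were listed in both count sheets, of 11409 genes listed in either sheet. The 3 gut libraries (110, 111 and 112) and the 3 fat body libraries (104, 105 and 106) not induced with RU486 were normalised together, to learn which genes and functions mark each organ at baseline. The study took organs from adult female Drosophila melanogaster of an outbred Dahomey background carrying the white mutation w1118, in which the RU486-dependent GeneSwitch driver S106, active in gut and fat body, controlled an RNA interference transgene against the ETS transcription factor pointed (UAS-Pnt RNAi). All 6 libraries came from this one genotype, so no transgene-free or driver-free females entered the comparison. Females had been mated for 48 h and fed for 6 days. The uninduced animals (-RU486) had vehicle in their food according to the study's methods. The treatment label reads 200 µM RU486 for every sample, controls included, and the separate induction label was used here. Each library was made from poly(A) RNA of the pooled organs of several flies. Guts had been freed of the Malpighian tubules, and the fat body samples were the abdomen less its reproductive organs, so that muscle, epidermis, oenocytes, heart, nerves and blood cells could remain in them.

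The adult gut is a tube of absorptive enterocytes and hormone-secreting enteroendocrine cells, renewed from stem cells, which digests food within a chitinous peritrophic matrix and regulates the pH of its lumen. The fat body fills the roles of liver and adipose tissue in the fly, as it stores triglyceride and glycogen, makes the yolk and the lipoproteins of the blood, and secretes antimicrobial peptides under Toll and Imd signalling. Oenocytes, large cells under the abdominal cuticle, make the hydrocarbons that waterproof the fly and act as pheromones.

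Levels are given throughout as CPM, a gene's count per 1000000 counts of the normalised library total over the 10005 genes. Values of single libraries stand in the order 110, 111, 112 for guts and 104, 105, 106 for fat bodies. Differences are on the log2 scale, gut minus fat body, given ± SE, so that positive differences mean higher in guts. Mean levels are given ± SD over the 3 libraries of an organ. A gene was called at a false discovery rate of 10% (edgeR's quasi-likelihood test, Benjamini-Hochberg adjustment over all 10005 genes), and these p-values measure the spread between pools of flies. A gene was taken as organ-marking where it was called, differed at least 4-fold and had no overlap between the libraries of both organs. In bulk samples such as these, fewer cells of a type and less RNA per cell cannot be told apart.

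The gut libraries held between 7159653 and 10234235 counts over these genes and the fat body libraries between 7250618 and 9552443. The first principal component held 79.5% of the variance and separated the organs. The second held 11.3% and parted gut library 112 from the other guts, and fat body library 106 from library 104 with library 105 between them. Spearman correlations over genes were 0.906 to 0.970 among guts and 0.865 to 0.957 among fat bodies, against 0.581 to 0.646 between the organs. Transcripts encoded by the mitochondrial genome took 7.23, 5.65 and 16.4% of counts in guts, against 15.7, 12.4 and 8.54% in fat bodies. Markers of each organ were on the side its label gives, as the 4 genes of the smooth septate junction of the gut took, as a share of counts, 0.161, 0.144 and 0.147% in the gut libraries, against 0.0137, 0.0124 and 0.00788% in the fat body libraries. Yolk protein genes summed to 1358, 1591 and 397 CPM in the gut libraries, against 16165, 22311 and 88894 CPM in the fat body libraries. Because libraries 112 and 106 stood apart, counts are also given without both of them where this moved a count of a list described below more than 1.5-fold, and the difference of a called gene is given without 1 library where that library moved it by as much.

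Guts and fat bodies differed in many genes, and the calls were spread over both directions. Of the 10005 genes, 1585 (15.8%) were called higher in guts and 1402 (14.0%) higher in fat bodies, and 7018 were not called. Without libraries 112 and 106, with 2 libraries per organ, 2932 of 10003 genes were called higher in guts and 2604 higher in fat bodies. These counts over all genes are the background of the list counts below, with all libraries and without these 2. The median difference over all genes was -0.002. Organ-marking genes numbered 918 in guts (9.18% of genes) and 749 in fat bodies (7.49% of genes). The gut-marking genes took 46.9, 45.5 and 37.6% of all counts in guts, against 1.34, 1.33 and 1.30% in fat bodies. The genes marking the fat body took 1.02, 1.24 and 0.751% of counts in guts, against 21.8, 25.9 and 34.9% in fat bodies. These shares restate how the marking genes were chosen, and they are given as a description. Differences were larger towards the gut, where 165 called genes differed by a log2 of at least 8, against 38 such genes called higher in fat bodies. In the other organ, 285 of the gut-marking genes and 204 of the fat body-marking genes averaged under 1 CPM.

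**Figure D1:**
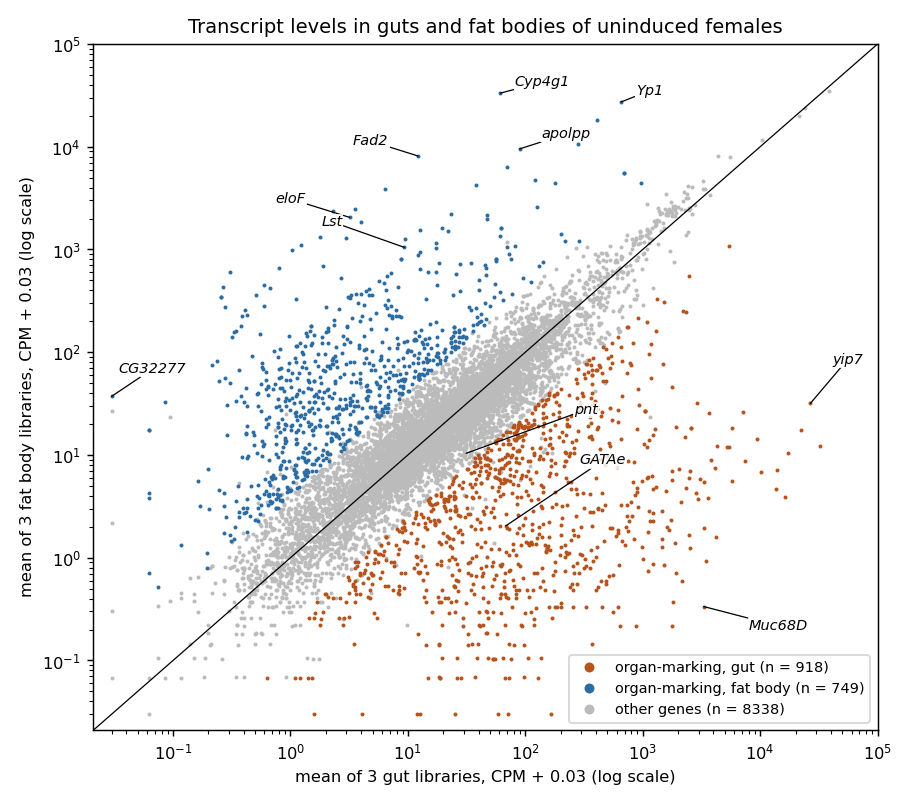
Mean level of each of the 10005 genes in the 3 gut libraries (horizontal axis, CPM + 0.03, log scale) against the 3 fat body libraries (vertical axis, same unit and scale), with the line of equal levels. The 918 gut-marking genes (orange) lie below the line and the 749 fat body-marking genes (blue) above it; Muc68D and Fad2 lie far from it and pnt closer to it.

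Digestive enzymes differed strongly between the organs. Of 26 Jonah and trypsin-family proteases, which cut dietary protein in the lumen, 25 were called higher in guts and 1 higher in fat bodies, with a median difference of 9.07 against -0.002 over all genes. Together they took, as a share of counts, 12.9, 13.7 and 6.68% in the gut libraries, against 0.0525, 0.0460 and 0.0332% in the fat body libraries. The chymotrypsin-like protease yip7 stood at 31724, 28276 and 20396 CPM in the gut libraries, against 41.2, 11.4 and 42.8 CPM in the fat body libraries. Jon25Bii, another Jonah protease, stood at 1033, 1279 and 301 CPM in the gut libraries, against 0.222, 0 and 0.343 CPM in the fat body libraries. For both genes every gut library was far above every fat body library. The differences were 9.72 ± 0.79 for yip7 (adjusted p = 4.7e-05) and 12.06 ± 0.99 for Jon25Bii (adjusted p = 4.9e-05). The trypsins epsilonTry (11.37) and CG30031 (12.32) had similar differences. Without library 106 the difference was 12.72 for Jon25Bii and 13.78 for CG30031. CG30025, a further trypsin-family gene, had 0 counts in all 3 fat body libraries, so that its level was at least 1536-fold higher in guts against a floor of 3 counts over the group. The trypsin genes lie side by side as near-identical copies, and how the counting divided reads between them is uncertain. The exception of the list was Ser12, a serine protease gene, at 0, 0.576 and 0.167 CPM in the gut libraries, against 304, 341 and 185 CPM in the fat body libraries.

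Enzymes of carbohydrate and fat digestion were also mostly higher in guts. Of 13 amylases and maltases, 10 were called higher in guts and 1 higher in fat bodies (median 8.55). The maltase Mal-A1, which releases glucose from maltose, stood at 6147, 2551 and 2159 CPM in the gut libraries, against 5.22, 1.63 and 4.57 CPM in the fat body libraries, a difference of 9.89 ± 0.81, or 9.27 without library 110. Mal-A7 had 0 counts in fat bodies and was at least 582-fold higher in guts. Library 112 had the lowest summed level of the list among guts, as the members together reached 11511, 5186 and 4016 CPM in the gut libraries, against 82.9, 98.6 and 217 CPM in the fat body libraries. The maltase-family member called higher in fat bodies was Mal-B2, at 2.03, 3.94 and 0.837 CPM in the gut libraries, against 51.2, 69.2 and 143 CPM in the fat body libraries. Of 12 lipases, 8 were called higher in guts and 2 higher in fat bodies (median 9.22). CG6295, a lipase-family gene of a cluster on chromosome 3R, averaged 3307 ± 1728 CPM in guts and 1.93 ± 2.12 CPM in fat bodies. CG17192 of the same cluster averaged 1116 ± 440.1 CPM in guts and 0.712 ± 0.563 CPM in fat bodies. CG6283, also of this cluster, had 0 counts in fat bodies and was at least 493-fold higher in guts. CG18258, also of the lipase family, went the other way with 1 count over all guts, and its normalised count in fat bodies was 782 times that of guts (exact 95% interval of the ratio 140 to 30919, counting error only).

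Lysozymes and most peptidases of the lumen were higher in guts. Of 7 lysozymes, which break bacterial cell walls, 6 were called higher in guts (median 9.37) and CG8492 higher in fat bodies (-2.28 ± 0.58). LysD stood at 11508, 7463 and 9433 CPM in the gut libraries, against 30.1, 3.25 and 9.48 CPM in the fat body libraries. Reads of LysB, LysC, LysD and LysE may be divided arbitrarily, because these genes are close copies and the models of LysC and LysD overlap. LysC, counted among the 6, is annotated as a pseudogene. Of 16 further peptidases, 9 were called higher in guts and 4 higher in fat bodies. The carboxypeptidase CG12374 stood at 31673, 37965 and 26665 CPM in the gut libraries, against 15.1, 4.88 and 16.3 CPM in the fat body libraries. The members higher in fat bodies were peptidases of the neprilysin and angiotensin-converting enzyme families, of which Nep6 differed by -6.30 ± 0.70, Ance-4 by -5.71 ± 0.58 and Ance-5 by -4.55 ± 0.72 (-3.73 without library 106). Nep2 (-1.74 ± 0.58, or -2.56 without library 111) was no longer called without library 110, 104 or 105 (adjusted p up to 0.19).

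Among genes of the gut lining a few differed strongly. Of 13 mucins and peritrophic matrix proteins, 5 were called higher in guts and 0 higher in fat bodies, with a median difference of 1.38. Without libraries 112 and 106, 8 of them were called higher in guts. The mucin Muc68D stood at 2657, 3068 and 4182 CPM in the gut libraries, against 0.222, 0.465 and 0.228 CPM in the fat body libraries. Its difference of 13.34 ± 0.61 (adjusted p = 1.5e-05) was the second largest of all genes above 20 CPM, after that of CG30025. Peritrophin-15b, a chitin-binding protein of the matrix, averaged 53.4 ± 25.1 CPM in guts and 0.0740 ± 0.128 CPM in fat bodies. The chitin genes were divided. Chs2, the chitin synthase of the peritrophic matrix, averaged 87.4 ± 12.5 CPM in guts and 0.841 ± 0.494 CPM in fat bodies. The chitinases Cht8 and Cht9 were also called higher in guts. Cht8 had 1 count over all fat bodies, and its normalised count in guts was 2762 times that of fat bodies (exact 95% interval of the ratio 495 to 109138, counting error only). Cht9 had 2 counts over all fat bodies, a ratio of 1964 (interval 543 to 16221). Cht4 had 0 counts in fat bodies and was at least 230-fold higher in guts. The imaginal disc growth factors, secreted relatives of chitinases, and the chitin deacetylases verm and serp were called higher in fat bodies, with Idgf5 at -7.28 ± 0.48, Idgf1 at -5.68 ± 0.44, verm at -4.04 ± 0.75 (-3.38 without library 105) and serp at -3.11 ± 0.65. In all, 4 of the 16 chitin genes were called higher in guts and 9 higher in fat bodies.

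The proton pump was higher in guts in nearly all of its subunits. Of 19 subunits of the vacuolar H+-ATPase, which acidifies compartments and the copper cell region of the midgut, 16 were called higher in guts (median 2.16). Most of these differed by a log2 near 2. Only the subunit-a isoforms Vha100-4 and Vha100-5 exceeded a log2 of 3. Vha100-5 stood at 552, 486 and 399 CPM in the gut libraries, against 2.66, 3.95 and 2.97 CPM in the fat body libraries. Vha100-4 averaged 104 ± 16.8 CPM in guts and 0.453 ± 0.404 CPM in fat bodies. Vha68-1, an alternative A subunit, was called higher in fat bodies (-1.10 ± 0.36, adjusted p = 0.056), a call that was lost without library 110, 111, 104 or 105. Without libraries 112 and 106, or without library 112 alone, 2 subunits were called higher in fat bodies.

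Transporters were divided between both organs. Of 24 nutrient transporters, 9 were called higher in guts and 9 higher in fat bodies (median -0.22). Npc1b, which takes up dietary sterol at the brush border, stood at 1322, 706 and 938 CPM in the gut libraries, against 2.0, 0.581 and 1.14 CPM in the fat body libraries. Of the sterol-binding Npc2 family, Npc2d (8.29 ± 0.72) and Npc2e (7.14 ± 1.15) were higher in guts, whereas Npc2g (-6.26 ± 0.58) and Npc2h (-6.29 ± 0.36) were higher in fat bodies. Without library 104 the difference was 9.17 for Npc2d and 9.12 for Npc2e. The trehalose transporter homologue Tret1-2 was higher in fat bodies (-3.83 ± 0.76, or -4.44 without library 110 and -3.23 without library 106). Of 20 genes of metal handling, 10 were called higher in guts and 3 higher in fat bodies. Metallothioneins, which bind copper and zinc, did not move together. MtnC averaged 419 ± 273 CPM in guts and 3.04 ± 1.79 CPM in fat bodies, and its difference was 7.10 ± 0.71, or 6.43 without library 112 and 7.69 without library 104. MtnB differed by 6.28 ± 0.91, or by 8.40 without library 104. MtnA, the most abundant of them, was not called, at 4049.6, 3312 and 5675 CPM in the gut libraries, against 9308, 7609 and 7488 CPM in the fat body libraries. The 3 genes higher in fat bodies were the transferrin family, led by the iron carrier Tsf1 at 0.135, 1.15 and 0.335 CPM in the gut libraries, against 11.4, 8.83 and 21 CPM in the fat body libraries. Without library 112, or without both it and library 106, 5 genes of the list were called higher in fat bodies.

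Junction genes were divided by the type of junction. The 4 smooth septate junction genes, which seal the endodermal epithelium, were all called higher in guts. The difference was 5.89 ± 0.84 for mesh (7.03 without library 105), 5.40 ± 0.47 for Tsp2A, 4.47 ± 0.47 for Ssk and 2.92 ± 0.34 for hoka. Of 13 genes of the pleated septate junction, used by ectodermal epithelia and glia, 1 was called higher in guts and 10 higher in fat bodies (median -1.42). nrv2, a sodium pump beta subunit of this junction, averaged 12.4 ± 3.07 CPM in guts and 97.2 ± 40.7 CPM in fat bodies. Gliotactin (Gli), at the corners between cells, was the member higher in guts (2.13 ± 0.34). The brush border myosins Myo61F (5.42 ± 0.58, or 6.06 without library 106) and Myo31DF (3.62 ± 0.28) were both higher in guts.

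Many of the organ-marking genes carried no functional name. Of the 918 gut-marking genes, 741 were in none of the 57 lists examined and 415 carried only a CG number as their name. Of the 749 fat body-marking genes, 589 were in no list and 282 carried only a CG number. Among the 15 gut-marking genes with the largest differences above 20 CPM, CG3906 averaged 1770.3 ± 269 CPM in guts and 0.188 ± 0.126 CPM in fat bodies. CG34220 averaged 16276 ± 7379 CPM in guts and 3.91 ± 2.47 CPM in fat bodies. The alkaline phosphatase Alp9 (11.61 ± 0.79, or 12.27 without library 106) and the aspartic protease Bace (11.50 ± 0.92) were also among them. CG31077, of the lipase cluster on 3R, had 3 counts over all fat bodies, and its normalised count in guts was 3083 times that of fat bodies (exact 95% interval 1055 to 14954, counting error only). The 15 of the fat body included CG32277, CG31681, CG9897 and CG32834 of the spermatheca list, which is described below. Of the same 15, CG7443 stood at 0.541, 0.288 and 0 CPM in the gut libraries, against 722, 839.6 and 254 CPM in the fat body libraries. CG42704 averaged 2.28 ± 2.04 CPM in guts and 2345 ± 481 CPM in fat bodies. Its neighbour on the X chromosome, CG42705, averaged 0.995 ± 0.749 CPM in guts and 991 ± 205 CPM in fat bodies. Sgp differed by -9.58 ± 0.49, CG43090 by -9.72 ± 1.02 and CG43074 by -9.50 ± 0.82. Gut library 111 held most of the few gut counts of CG43090, and without it the difference was -11.76 for CG43090 and -10.61 for CG43074.

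**Figure D2:**
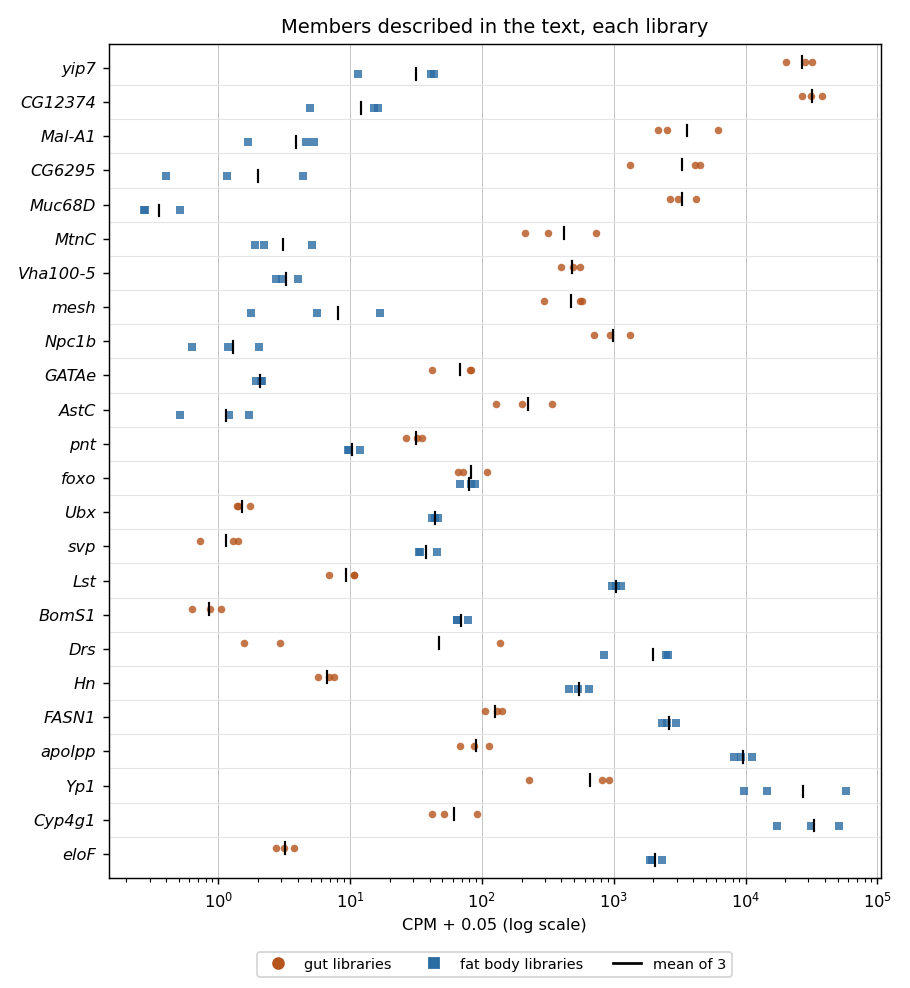
Level of 24 genes in each library (horizontal axis, CPM + 0.05, log scale), with the 3 gut libraries (orange circles) above the 3 fat body libraries (blue squares) and a black bar at each mean of 3. For 23 genes the organs do not overlap, whereas the points of foxo overlap around 100 CPM. Over all genes tested, 37.7% had no overlap between the organs.

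Transcription factors of the midgut were higher in guts. Of 12 gut transcription factors, 10 were called higher in guts and 0 higher in fat bodies (median 3.12). GATAe, the GATA factor of the endoderm, stood at 80.7, 81.9 and 41.8 CPM in the gut libraries, against 1.89, 2.09 and 2.06 CPM in the fat body libraries. The homeobox gene exex stood at 94, 87.4 and 55.1 CPM in the gut libraries, against 0.333, 1.28 and 0.114 CPM in the fat body libraries, a difference of 7.07 ± 0.68, or 8.36 without library 105. The POU factor nub averaged 43.8 ± 5.59 CPM in guts and 0.680 ± 0.596 CPM in fat bodies. The enteroendocrine list held 10 genes, of which 8 were called higher in guts. Allatostatin C (AstC), a peptide hormone of these cells, stood at 199.5, 128 and 343 CPM in the gut libraries, against 1.67, 1.16 and 0.457 CPM in the fat body libraries. The difference was 7.17 ± 0.56 for neuropeptide F (NPF), 6.48 ± 0.54 for CCHa1 and 6.22 ± 0.51 for Orcokinin. CCHa2, a peptide that the larval fat body also secretes, was called higher in fat bodies (-1.71 ± 0.35). pros, the factor that specifies enteroendocrine cells and also acts in neurons, did not differ beyond its error (0.26 ± 0.46, 95% interval -0.80 to 1.32). Neither of the 2 genes of stem cells and enteroblasts in both sheets was called. A further 3 genes of this list were in 1 sheet only and were not tested, so the list was mostly left out.

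Hox genes were higher in the fat body samples. All 4 measured Hox genes, which set segment identity, were called higher in fat bodies. Ubx stood at 1.35, 1.34 and 1.67 CPM in the gut libraries, against 41.7, 46.1 and 43.7 CPM in the fat body libraries. abd-A differed by -3.16 ± 0.44 and Abd-B by -3.23 ± 0.43, and the 3 genes lie next to each other on chromosome 3R between 16652446 and 16972236, together with modSP, a serine protease of the Toll cascade that was also marking. The call of Antp (-1.31 ± 0.34) was lost without library 110 or 105. Of 16 GATA factors, nuclear receptors and other factors known from fat body or endoderm, 1 was called higher in guts and 5 higher in fat bodies (median -0.35), against 4 and 6 without libraries 112 and 106. The orphan nuclear receptor svp stood at 1.35, 1.25 and 0.669 CPM in the gut libraries, against 33, 33.6 and 45.6 CPM in the fat body libraries. srp, the GATA factor of fat body and blood cells, averaged 11.6 ± 5.63 CPM in guts and 40.9 ± 10.3 CPM in fat bodies. The nuclear receptor Hr96, a regulator of lipid and xenobiotic metabolism, was higher in guts (3.33 ± 0.33).

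pnt, the gene that the transgene targets, was expressed in both organs of the uninduced females, which carried the driver and the transgene. It stood at 32.2, 35.2 and 26.6 CPM in the gut libraries, against 9.55, 9.76 and 11.8 CPM in the fat body libraries, with no overlap and a difference of 1.6 ± 0.28 (adjusted p = 0.0034, higher in 3 of 3 guts than in any fat body). Among the 10 ETS, ETS-associated and Foxo factors measured, pnt alone was called higher in guts and 2 were called higher in fat bodies. Over all genes, 15.8% were called higher in guts and 14.0% higher in fat bodies. Without libraries 112 and 106 the counts were 1 and 4 of these 10 factors, beside 2932 and 2604 of 10003 genes. Ets98B was called higher in fat bodies at 0.811, 1.63 and 2.01 CPM in the gut libraries, against 28.4, 23.5 and 34.6 CPM in the fat body libraries. Ets96B was also called higher in fat bodies (-1.30 ± 0.37), a call lost without library 110 or 105. The ETS repressor aop (difference 0.25 ± 0.32, 95% interval -0.48 to 0.97) and foxo, the forkhead factor of insulin signalling (0.06 ± 0.30, 95% interval -0.63 to 0.74), were not called.

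The genes with the largest difference towards the fat body samples included the hydrocarbon pathway of oenocytes. All 8 genes of this list were called higher in fat bodies (median -9.12), and together they took, as a share of counts, 0.00955, 0.00632 and 0.00423% in the gut libraries, against 2.80, 4.35 and 5.16% in the fat body libraries. Cyp4g1, the P450 that makes hydrocarbons from aldehydes, stood at 91, 51.1 and 41.8 CPM in the gut libraries, against 17317, 31398 and 51003 CPM in the fat body libraries. The fatty acid elongase eloF stood at 3.11, 2.69 and 3.68 CPM in the gut libraries, against 2321, 1938 and 1898 CPM in the fat body libraries. eloF lies next to the elongase-family genes CG16904, CG9459 and CG9458, which differed by -9.46, -9.16 and -9.33. Fad2, a desaturase that makes the dienes of female cuticle, stood at 17, 8.93 and 10.5 CPM in the gut libraries, against 8372, 7536 and 8469 CPM in the fat body libraries. These levels describe the abdominal sample as dissected, since oenocytes lie on its body wall, and their share of the sample was not measured.

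Yolk and lipoprotein genes were high in fat bodies. All 3 yolk protein genes were called higher in fat bodies (median -5.24), and their share of counts was 0.123, 0.162 and 0.0332% in the gut libraries, against 1.92, 2.65 and 8.15% in the fat body libraries. Yp1 stood at 816, 923 and 227 CPM in the gut libraries, against 9752, 14522 and 57556 CPM in the fat body libraries. Library 106 was well above the other fat bodies, and without it the difference of Yp1 was -4.23 (as reported -5.38 ± 0.93). Yp1 reads may also be shared with asRNA:CR45601, an overlapping antisense gene, because the strand setting of the counting was not stated. Of 7 lipoprotein and lipid carrier genes, 1 was called higher in guts and 4 higher in fat bodies. apolpp, the precursor of the main blood lipoprotein, stood at 87.6, 67.9 and 113 CPM in the gut libraries, against 9298, 8180.2 and 11106 CPM in the fat body libraries. Its partners Apoltp (-6.23 ± 0.67) and Mtp (-3.33 ± 0.55), which load and transfer its lipid, were also higher in fat bodies, with differences of -5.57 for Apoltp and -2.64 for Mtp without library 106. The lipocalin NLaz was the member higher in guts, at 1170.4 ± 467 CPM in guts and 56.2 ± 5.48 CPM in fat bodies.

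Lipid storage genes were divided between the organs. Of 18 genes of fatty acid and triglyceride synthesis, 5 were called higher in guts and 8 higher in fat bodies (median -0.83). FASN1, the fatty acid synthase, stood at 105, 142 and 129 CPM in the gut libraries, against 2528, 2336 and 2966 CPM in the fat body libraries. ACC, which supplies its malonyl-CoA, differed by -2.68 ± 0.45. The last step of triglyceride synthesis was divided, as the acyltransferase mdy (DGAT1) was higher in fat bodies (-3.75 ± 0.38) and Dgat2 higher in guts (2.71 ± 0.39). Of the lipid droplet genes, the perilipin Lsd-1 (-4.47 ± 0.59) and AkhR, the receptor of adipokinetic hormone (-6.27 ± 0.69, or -5.65 without library 106), were higher in fat bodies, whereas the lipase bmm (1.51 ± 0.31) was higher in guts. Of 23 genes of beta-oxidation and peroxisomes, 5 were called higher in guts and 0 higher in fat bodies, against 16 and 1 without libraries 112 and 106, 12 and 1 without library 106 alone, 3 and 0 without library 105 and 4 and 1 without library 112 alone.

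Genes of amino acid breakdown and sugar release were higher in fat bodies. Of 11 genes of amino acid breakdown, 0 were called higher in guts and 7 higher in fat bodies (median -4.54). Henna (Hn), the phenylalanine hydroxylase, stood at 7.43, 6.82 and 5.69 CPM in the gut libraries, against 456, 537 and 649 CPM in the fat body libraries. vermilion (v), the tryptophan oxygenase, averaged 0.705 ± 0.0553 CPM in guts and 48.8 ± 33.6 CPM in fat bodies. Gnmt, which consumes S-adenosylmethionine, averaged 1.29 ± 0.365 CPM in guts and 80.9 ± 19.1 CPM in fat bodies. Of 9 genes of trehalose, glycogen and gluconeogenesis, 0 were called higher in guts and 6 higher in fat bodies (median -2.49), with 1 called higher in guts without libraries 112 and 106. Tps1, the trehalose synthase, stood at 26.9, 40.0 and 6.02 CPM in the gut libraries, against 181, 245 and 659 CPM in the fat body libraries. Fructose bisphosphatase (fbp) differed by -3.35 ± 0.36 and UGP, which makes UDP-glucose, by -3.78 ± 0.40. Pepck1 (-3.83 ± 0.47) had the same counts as the gene CG45087 in these sheets, and its reads cannot be assigned to one of them. Of the 13 genes of glycolysis 0 were called higher in guts and 1 higher in fat bodies, the liver-type hexokinase Hex-C (-2.55 ± 0.84, or -1.28 without library 106), whose call was lost without library 111, 112 or 106. Without libraries 112 and 106, 8 glycolytic genes were called higher in guts, 2 without library 106 alone and 1 without library 112 alone.

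Several secreted signals were higher in fat bodies. Of 10 genes of insulin-like and adipokine signals, 0 were called higher in guts and 6 higher in fat bodies (median -3.02). In guts 1 was called higher without library 106 or without both it and library 112. Ilp3, an insulin-like peptide gene, was listed in the gut sheet only, at 11.1, 12.3 and 35.5 CPM, and was not tested. Limostatin (Lst), a peptide that suppresses insulin release, stood at 10.5, 6.82 and 10.5 CPM in the gut libraries, against 1132, 1039.6 and 972 CPM in the fat body libraries. The growth-blocking peptides, which signal amino acid supply from the larval fat body, differed by -6.48 ± 0.55 for Gbp2 and -5.04 ± 0.33 for Gbp1. Of 5 genes of storage and serum proteins, 1 was called higher in guts and 2 higher in fat bodies. Those 2 were the odorant-binding proteins Obp99a (-6.31 ± 0.40) and Obp99b (-3.71 ± 0.79, on 2 counts over all guts and 34 over all fat bodies). Obp99a is counted again among the odorant-binding proteins below. The gene higher in guts was takeout (to), a feeding-related carrier protein (4.82 ± 0.49), with means of 184 ± 87.6 CPM in guts and 6.52 ± 2.48 CPM in fat bodies.

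Immune effectors were higher in fat bodies. All 12 measured Bomanin and Daisho peptides, short effectors of Toll signalling, were called higher in fat bodies (median -5.93). BomS1 stood at 0.811, 0.576 and 1.0 CPM in the gut libraries, against 78.9, 64.7 and 64.9 CPM in the fat body libraries. All 8 measured antimicrobial peptide genes were called higher in fat bodies (median -3.92), and 5 of them without library 110. Drosomycin (Drs), an antifungal peptide, stood at 136, 2.88 and 1.51 CPM in the gut libraries, against 2559.9, 2501 and 848 CPM in the fat body libraries (difference -5.39, or -9.78 without library 110), so that gut library 110 was well above the other 2 guts but below each fat body. Both measured Turandot stress peptides, TotA (-5.22 ± 0.53) and TotM (-5.20 ± 0.65, or -6.63 without library 111), were higher in fat bodies. Of 18 genes of the Toll and melanisation cascades, 2 were called higher in guts and 15 higher in fat bodies (median -3.14). The protease psh averaged 0.585 ± 0.0872 CPM in guts and 64.3 ± 44.8 CPM in fat bodies. SPE, the enzyme that cleaves the Toll ligand, differed by -5.50 ± 0.60, or by -4.86 without library 106. GNBP3, a sensor of fungal glucan, averaged 1.94 ± 1.53 CPM in guts and 65.4 ± 51.9 CPM in fat bodies. The exceptions were the serine protease homologue sphe (8.71 ± 0.78) and the protease spirit (2.76 ± 0.83, with 1.96 without library 111 and 3.46 without library 106), whose call was lost without library 111, 104 or 105.

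The peptidoglycan recognition proteins were divided evenly between the organs. Of 11 members 5 were called higher in guts and 5 higher in fat bodies (median 0.02). PGRP-SC2, an amidase that digests peptidoglycan, averaged 886 ± 141 CPM in guts and 4.71 ± 2.77 CPM in fat bodies. The amidase PGRP-SC1b averaged 35.4 ± 9.76 CPM in guts and 0.115 ± 0.114 CPM in fat bodies. The amidase PGRP-LB (2.87 ± 0.73, or 3.89 without library 106) and the intracellular sensor PGRP-LE (1.67 ± 0.30) were also higher in guts. PGRP-SA and PGRP-SD, the circulating sensors upstream of Toll, differed by -4.29 ± 0.40 and -3.58 ± 0.36, and the amidase PGRP-SB1 by -5.50 ± 0.55, all higher in fat bodies. PGRP-LF, an inhibitor of the Imd receptor, was also higher in fat bodies (-3.04 ± 0.29). Its exons overlap those of UGP, also higher in fat bodies, and reads may be shared because the strand setting was not stated. Odorant-binding proteins, small carriers best known from sensory organs, were on the side of the fat body as well. Of 13 genes, 0 were called higher in guts and 9 higher in fat bodies (median -4.22). Obp57d had the same counts as the overlapping cuticle protein gene Cpr57A (both -4.22), and its reads cannot be assigned to one of them. Obp99c stood at 13.8, 14 and 10.2 CPM in the gut libraries, against 663, 914 and 1228 CPM in the fat body libraries.

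Cytochrome P450 and UDP-glycosyltransferase genes were called higher in guts more often than in fat bodies, with members on both sides. Of 72 cytochrome P450 genes, 33 were called higher in guts and 15 higher in fat bodies (median 1.04), and without library 110 the counts were 30 and 10. Their summed share of counts went the other way, at 0.934, 0.709 and 1.10% in the gut libraries, against 2.41, 4.11 and 5.10% in the fat body libraries. Cyp4g1 alone averaged 33239 CPM in fat bodies. Cyp4ad1 averaged 83.2 ± 27.1 CPM in guts and 0.454 ± 0.227 CPM in fat bodies. Cyp4d14 averaged 152 ± 56.1 CPM in guts and 1.22 ± 1.03 CPM in fat bodies. On the other side, Cyp18a1, which inactivates ecdysone, was higher in fat bodies (-5.08 ± 0.59, or -5.91 without library 111). Of 27 UDP-glycosyltransferases, which conjugate toxins with sugar, 16 were called higher in guts and 7 higher in fat bodies (median 2.44), or 16 and 4 without library 110. Ugt37A2 stood at 346, 237 and 885 CPM in the gut libraries, against 0.999, 0 and 0.571 CPM in the fat body libraries. Of the glutathione transferases, 2 of 7 GstD genes were called higher in guts and 0 higher in fat bodies, and 5 of 12 GstE genes higher in guts and 2 higher in fat bodies. With libraries 112 and 106 left out, 4 GstE genes were called higher in guts and 6 higher in fat bodies, and 1 GstD gene was called higher in fat bodies. Without library 110 alone, 1 GstE gene was called higher in fat bodies. GstD7 differed by 6.80 ± 0.71 (7.62 without library 104), GstE7 by 3.68 ± 0.52 (3.04 without library 112) and GstE1 by -1.84 ± 0.28.

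**Figure D3:**
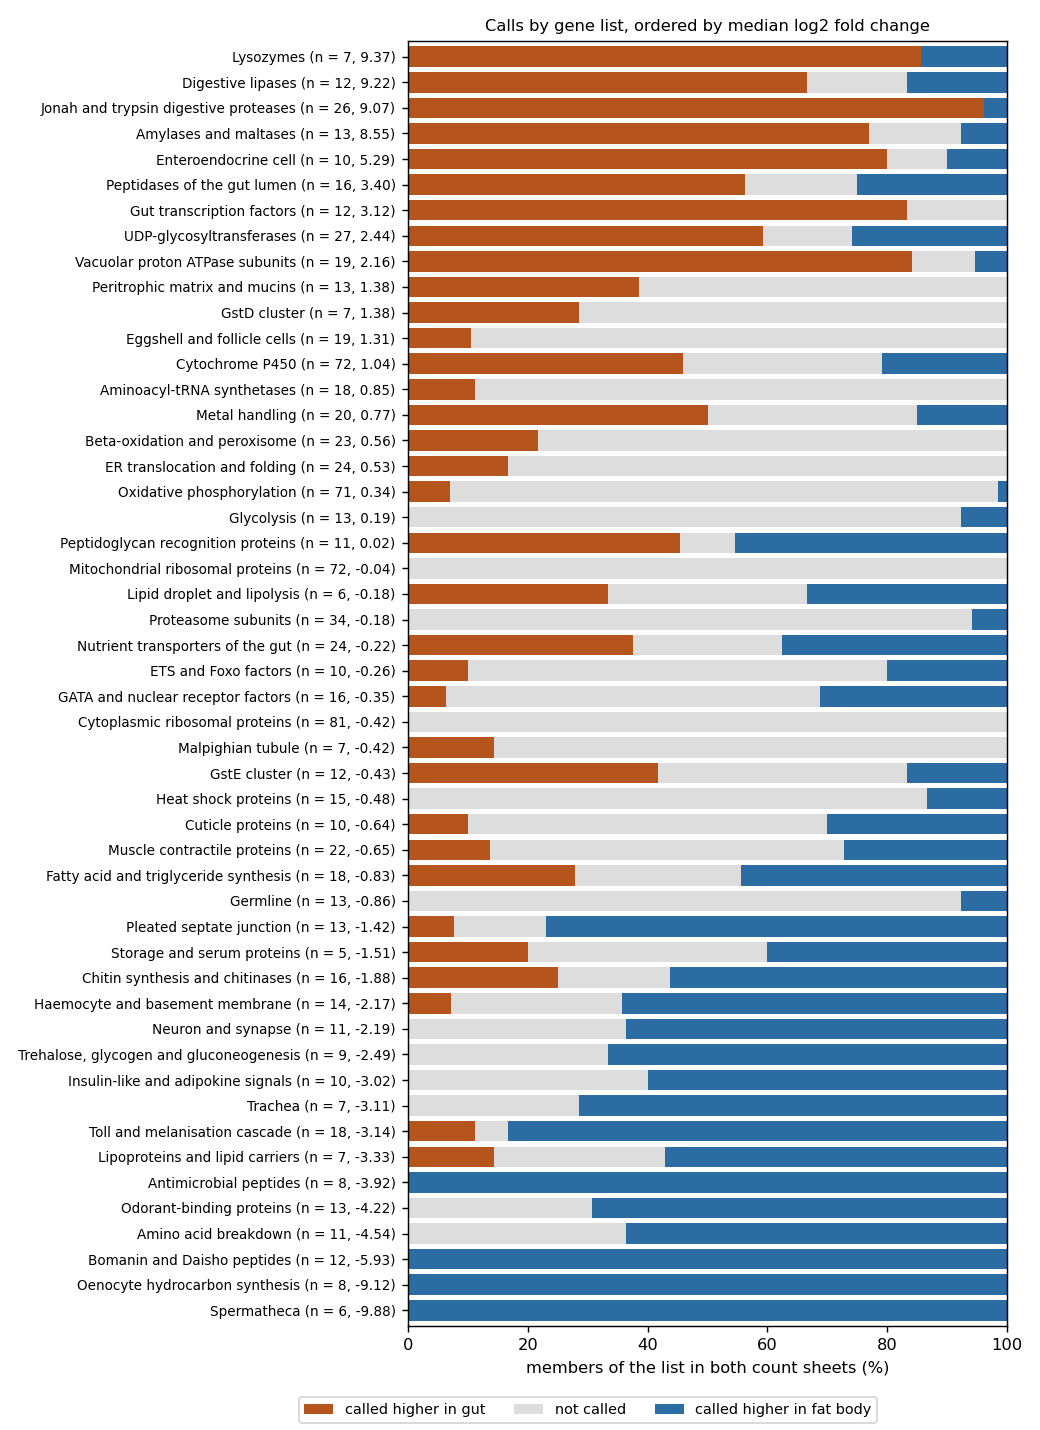
Share of the members of each list (horizontal axis, %) that were called higher in guts (orange), not called (grey) or called higher in fat bodies (blue), for the lists with at least 5 genes in both sheets, ordered by their median log2 difference, which stands beside the number of genes. Lists of digestive enzymes stand at the top, with medians of 8.55 to 9.37, and the Bomanin, hydrocarbon and spermatheca lists stand at the bottom and are wholly blue, while the ribosomal protein lists are wholly grey.

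Most markers of blood cells, tracheae and neurons were called higher in the fat body samples, and their part in the differences above was not tested. Of 14 haemocyte and basement membrane genes, 1 was called higher in guts and 9 higher in fat bodies, and their summed level was 331, 334 and 437 CPM in the gut libraries, against 601, 881 and 895 CPM in the fat body libraries. Without libraries 112 and 106, 0 of them were called higher in guts and 11 higher in fat bodies. The gene called higher in guts was Pxn (1.13 ± 0.42), whose call was lost without library 110, 112, 104 or 105. Hemolectin (Hml), a marker of plasmatocytes, averaged 3.85 ± 0.595 CPM in guts and 50.3 ± 26.7 CPM in fat bodies. The collagen IV chains Col4a1 (-4.53 ± 0.40) and vkg (-4.37 ± 0.42), made by fat body and blood cells alike, were higher in fat bodies. Of 7 tracheal genes 5 were called higher in fat bodies, with a sum of 27.6, 29.4 and 34.3 CPM in the gut libraries, against 189, 329.9 and 112 CPM in the fat body libraries. Of 11 neuronal genes 7 were called higher in fat bodies, with a sum of 60.3, 47.6 and 72 CPM in the gut libraries, against 183, 257 and 155 CPM in the fat body libraries. With both libraries left out, 1 neuronal gene was called higher in guts and 10 higher in fat bodies. The GABA receptor Rdl differed by -4.17 ± 0.93, or by -5.14 without library 111 and -3.28 without library 105. The sodium channel para differed by -3.19 ± 0.59, or by -3.95 without library 112. Of the 3 heart and nephrocyte genes, all were called higher in fat bodies and only Amnionless (-5.05 ± 0.58) kept its call without library 105, 110 or 111. None of the members of these 4 lists was at 0 counts in either organ.

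Muscle, which clothes the gut as well as the body wall, gave smaller differences. Of 22 genes of contractile proteins, 3 were called higher in guts and 6 higher in fat bodies (median -0.65), against 15.8% and 14.0% of all genes. Their sum was 3460.2, 3525 and 3999 CPM in the gut libraries, against 5591, 7549 and 5491 CPM in the fat body libraries. The giant filament protein sls stood at 89.9, 107 and 79.3 CPM in the gut libraries, against 178, 240.0 and 364 CPM in the fat body libraries. This count depended on single libraries, with 1 muscle gene called higher in fat bodies without library 110, 2 without library 105 or 111 and 10 without library 106. With libraries 112 and 106 left out, 3 were called higher in guts and 12 higher in fat bodies, and without library 105 0 were called higher in guts. The flight muscle actin Act88F went the other way with 2.54 ± 1.31 CPM in guts and 0.229 ± 0.302 CPM in fat bodies, and its call was lost without library 105.

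Transcripts of the female reproductive tract and of the tubules were present as well. All 6 measured genes of the secretory cells of the spermatheca, an organ that stores sperm, were called higher in fat bodies (median -9.88). Their sum was 0.270, 5.76 and 0 CPM in the gut libraries, against 2109, 2460.0 and 1421 CPM in the fat body libraries. CG32277 of this list had 0 counts in guts and was at least 294-fold higher in fat bodies. CG31681, a serine protease of the same list, averaged 0.237 ± 0.301 CPM in guts and 433 ± 165 CPM in fat bodies. CG9897 had 7 counts over all guts, which all came from library 111, and its difference was -10.22, or -14.42 without that library. This gene had nearly the same counts as asRNA:CR42742, and their reads cannot be told apart. Ser12 lies in 1 run of neighbouring marking genes with CG31681 and the spermathecal genes CG17239 and Send1 on chromosome 2L. How completely the reproductive organs had been removed was not tested. Eggshell genes were uneven between libraries, at a sum of 72.7, 3171 and 28.8 CPM in the gut libraries, against 15.4, 181 and 72.1 CPM in the fat body libraries, and gut library 111 held nearly all of the gut signal. Of the 19 eggshell genes 2 were called higher in guts, 4 without libraries 112 and 106, 1 without library 110 or 111 and 0 without library 104 or 105. The chorion gene Cp18 (5.29 ± 1.80, or 0.25 without library 111 and 6.24 without library 106) was called higher in guts but lost its call without library 111, 104 or 105. Of 13 germline genes 1 was called higher in fat bodies, 6 without library 106 or without both it and library 112, and 3 without library 111. The 7 genes of the Malpighian tubule summed to 239, 279 and 151 CPM in the gut libraries, against 100.5, 149 and 369.7 CPM in the fat body libraries, and 1 of them, the water channel Drip, was called higher in guts (1.0 ± 0.31), a call lost without library 110, 111 or 104. Over all genes, 15.8% were called higher in guts. The count of tubule genes called higher in guts was 5 without libraries 112 and 106, beside 2932 of 10003 genes.

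**Figure D4:**
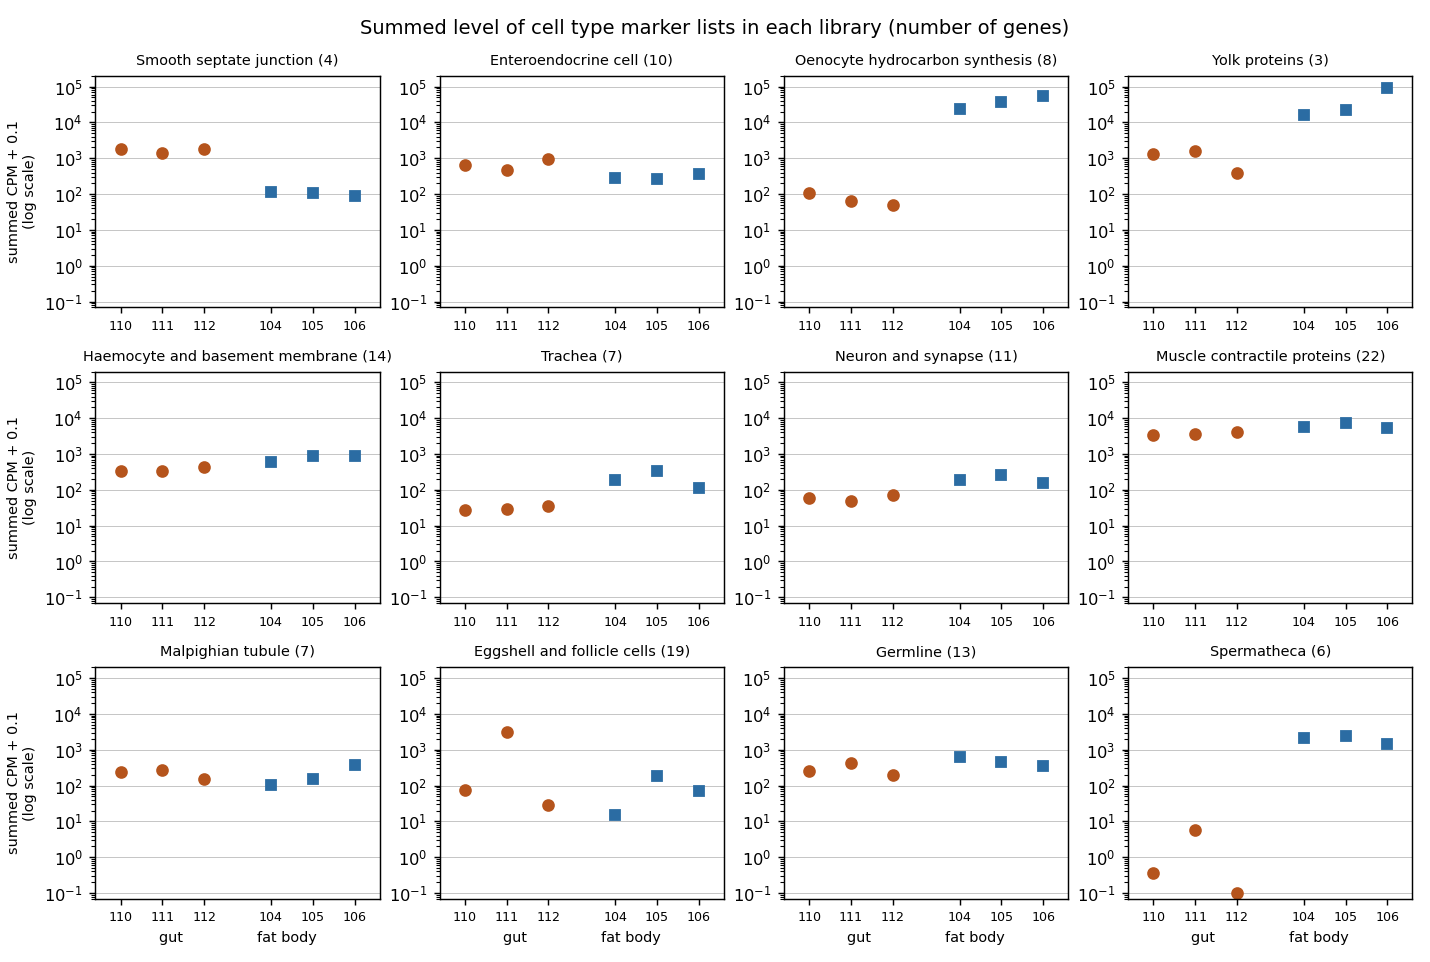
Summed level of 12 marker lists in each library (vertical axis, CPM + 0.1, log scale), with 1 panel per list, the number of its genes in brackets, the 3 gut libraries on the left (orange circles) and the 3 fat body libraries on the right (blue squares). Smooth septate junction and enteroendocrine sums are higher in all 3 guts, those of oenocytes, yolk, spermatheca, haemocytes, trachea, neurons and muscle in all 3 fat bodies, and the tubule, eggshell and germline sums overlap between the organs.

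Few genes that every cell uses were called between the uninduced organs. In induced females more were called higher in guts, at 55 of 71 for oxidative phosphorylation and 17 of 24 for ER genes. For aminoacyl-tRNA synthetases these were 12 of 18, and for mitochondrial ribosomal proteins 19 of 72, against 25.6% of all genes. Of cytoplasmic ribosomal proteins 7 of 81 were, and of proteasome subunits 5 of 34. At most 3 genes of any of these lists were called higher in fat bodies there. The counts below are of uninduced females. Among 81 cytoplasmic ribosomal protein genes, 0 were called in either direction by edgeR, with a median of -0.42. The unadjusted p was below 0.05 for 1 of them, and DESeq2 called 1, higher in fat bodies. Without library 106 edgeR called 5 higher in guts, and without library 112 it called 13 higher in fat bodies. Without both it called 14 higher in guts and 23 higher in fat bodies. Their summed share of counts was 9.06, 8.67 and 9.59% in the gut libraries, against 15.2, 14.5 and 13.6% in the fat body libraries, with no overlap, and the exact permutation test over 3 against 3 libraries reached its smallest possible p of 0.1 (two-sided). Scaled by library size only, 18 of the 81 were called higher in fat bodies. Among 72 mitochondrial ribosomal protein genes, 0 were called by edgeR or DESeq2 (0 with an unadjusted p below 0.05). With both libraries left out, edgeR called 8 of these higher in guts and 17 higher in fat bodies, with 4 higher in guts without library 106 alone and 1 without library 112 alone. Of 71 genes of oxidative phosphorylation, 5 were called higher in guts and 1 higher in fat bodies, against 24 and 2 without libraries 112 and 106. Without library 106 alone 19 were called higher in guts, 2 without library 111 and 1 without library 110, 104 or 105. The succinate dehydrogenase subunit SdhA averaged 87.5 ± 2.80 CPM in guts and 40.2 ± 1.83 CPM in fat bodies. Of 18 aminoacyl-tRNA synthetases 2 were called higher in guts, 15 without both libraries, 12 without library 106 alone, 8 without library 112 alone and 0 without any 1 of the other libraries. Of 24 genes of ER translocation and folding 4 were called higher in guts and 0 higher in fat bodies, against 16 and 3 without both libraries, with 9 higher in guts without library 106 alone and 0 without library 110, 111, 104 or 105. Of 34 proteasome subunits 0 were called higher in guts and 2 higher in fat bodies, against 12 and 7 without both libraries. These were 5 and 1 without library 106, 0 and 5 without library 112 and 0 and 0 without library 110, 111 or 105. For these lists the count rested on which libraries entered, and so did the count over all genes. That count moved from 1585 and 1402 to 2932 and 2604 without both libraries, and to 2019 and 1685 without library 106 alone.

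Some abundant genes stood at nearly the same level in both organs. sesB, the adenine nucleotide carrier of mitochondria, differed by -0.00 ± 0.36 at 2445, 2054 and 3027 CPM in the gut libraries, against 1769, 2764 and 3005 CPM in the fat body libraries. ATPsynC, a subunit of the ATP synthase ring, differed by 0.05 ± 0.32, and sqd, an RNA-binding protein, by -0.04 ± 0.30. The mitochondrially encoded mt:CoI stood at 18177, 12922 and 41632 CPM in the gut libraries, against 28616, 22721 and 20898 CPM in the fat body libraries, so that its libraries overlapped while the mitochondrial share of counts varied within each organ. Its 95% interval ran from -1.19 to 1.21.

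Per kilobase of exon, the 10 most abundant genes of each organ held mitochondrial transcripts together with genes of its own. Of the nuclear genes yip7 was the most abundant in guts, at 29645 CPM per kb in guts and 35.2 CPM per kb in fat bodies. Jon65Aiii, another Jonah protease, followed at 25232 CPM per kb in guts and 20.1 CPM per kb in fat bodies. Among the 10 of the fat body, Yp1 stood at 407 CPM per kb in guts and 16932 CPM per kb in fat bodies. Cyp4g1 stood at 26.9 CPM per kb in guts and 14585 CPM per kb in fat bodies. MtnA was among the 10 of the fat body and not of the gut, at 6208 CPM per kb in guts and 11621 CPM per kb in fat bodies, although its difference was not called.

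Genes marking the same organ often lay side by side. The next gene along the chromosome, among those tested, also marked the gut for 324 of 910 gut-marking genes (35.6%), against 9.21% of all genes. For fat body-marking genes this held for 218 of 743 (29.3%), against 7.52% of all genes. The longest run held 11 trypsin genes on chromosome 2R between 11336840 and 11357537 (BDGP6.54). On the side of the fat body the longest run held 8 Bomanin genes and Idgf5 on chromosome 2R between 18383949 and 18395282. The Jonah genes of the 65A region with yip7 (6 genes, 3L), the lysozymes LysB to LysP with CG33965 and CG33966 (7 genes, 3L) and the maltases Mal-A1 to Mal-A4 (2R) were further runs of the gut. Many such neighbours are copies of each other, and overlapping or near-identical models can share reads. None of the 85 genes tested on chromosome 4 marked the gut, against 9.18% of all genes. On this chromosome 8 genes (9.41%) marked the fat body, against 7.49% of all genes. The median exon length was 1684 bases for gut-marking and 1792 for fat body-marking genes, against 1978 over all genes.

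Genes listed in 1 sheet were left out of the tests, and their absence from the other sheet is not a count of 0. The gut sheet alone listed 353 genes with 0.202% of that sheet's counts. The trypsin gammaTry averaged 604 ± 144 CPM there and deltaTry 133 ± 34.6 CPM (SD, n = 3). The fat body sheet alone listed 1051 genes with 0.549% of its counts. Osi7, of a cuticle-related gene family, stood at 579, 510 and 0.114 CPM and Osi6 at 285, 386 and 0 CPM in libraries 104, 105 and 106. CG13159 stood at 151, 270 and 0 CPM and TwdlF at 12.8, 315 and 0.228 CPM in the same libraries. CG13155, also among the 5 highest, was even by contrast, at 128, 123 and 129 CPM. Library 106 lacked the 2 Osi transcripts, CG13159 and TwdlF almost wholly, while it was highest in yolk protein. Of the genes next in rank, some such as Osi15 and ImpL1 were also nearly absent from library 106, and others such as hgo were even.

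The organ difference was also measured in the induced females of the same genotype, in 3 further libraries per organ. There 2562 genes (25.6%) were called higher in guts and 2837 (28.4%) higher in fat bodies. Of the 2987 genes called in uninduced females, 2966 (99.3%) had the same sign in induced females, 2839 were called in the same direction and 1 in the opposite direction. Over all 10005 genes the 2 sets of differences had a Pearson correlation of 0.947 and a Spearman correlation of 0.861, given as a description over genes, which are not independent. In a fit over all 12 libraries, 0 genes had an organ difference that changed with induction at 10% FDR (edgeR, smallest adjusted p = 0.116), and 342 of 10005 genes had an unadjusted p below 0.05.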

How the data were processed

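The deposited values were raw counts per gene in 2 sheets, 1 per organ. The authors made them from reads that Je 1.2 had stripped of duplicates and that HiSat2 2.1 had placed on release 6.19 of the fly genome, using featureCounts 1.6 (the strand setting is not given in the sources used here). The variance-stabilised sheets, made per organ, were not used. The uninduced columns of both sheets were joined on gene identifier. Genes present in both sheets were scaled by TMM factors over the 6 libraries and tested with edgeR 4.0.16 (R 4.3.3, quasi-likelihood F test) with organ as the only term, after a test on simulated data. limma 3.58.1 and DESeq2 1.42.0 served as alternatives, beside other scalings, filters, thresholds, the induced libraries and each library left out. The biological coefficient of variation was 41.4%. Symbols and positions came from Ensembl annotation of BDGP6.54 and matched 9926 of 10005 genes. CPM per kb used exon lengths of that annotation.

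Named genes were, by rule, the 15 organ-marking genes with the largest difference per organ above 20 CPM, the 10 most abundant per kb, the 8 most even above 500 CPM, the 5 highest listed in 1 sheet only per organ, and up to 4 called members per direction of each list, with all members of the ETS and Foxo, Hox, gut transcription factor and yolk lists. Other genes, named only as neighbours in a run, were chosen after their values were seen. Gene lists and the rule were chosen with earlier results of these data known. Sequences were not used. Intervals of count ratios cover counting error only. The counts of each organ came in a sheet of its own, so organ and sheet cannot be told apart.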

Additional observations from a re-analysis of the deposited data

How the results depend on the processing

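The reported counts were 1585 genes called higher in guts and 1402 higher in fat bodies, with 918 and 749 organ-marking genes. They stayed within 1.5-fold under DESeq2, limma-voom, RLE, upper quartile and library size scaling, filterByExpr, a fit over 12 libraries and 5% FDR. They moved to 1039 and 835 under a test against a 2-fold change, to 947 and 736 at 1% FDR, to 2562 and 2837 in induced females, and to 2932 and 2604 without libraries 112 and 106, an alternative chosen after seeing the data. Organ-marking genes numbered 1436 and 1230 at 2-fold, and those of the fat body 485 at 8-fold. Leaving out each library in turn gave 1181 to 2019 genes called higher in guts, 944 to 1685 higher in fat bodies, and 892 to 1051 and 701 to 818 organ-marking genes. Upper quartile scaling moved the median of all genes to -0.19 and library size alone to -0.25, and small differences near these shifts depend on the scaling. Among the called named genes, Fcp3C of follicle cells alone changed sign, at -0.95 in induced females (1.80 as reported). Uncalled named genes near 0 changed sign more often, of which mt:CoII (0.04) was called, at -0.85, without libraries 112 and 106. The cause was not tested. Without library 105, 31 named genes lost their call, and without library 110, 30. With 3 pools per organ, no exact permutation test of a single value can go below 0.1. No paired analysis was possible because the labels give guts and fat bodies no shared replicate numbers.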
